A study of Mus musculus with 16 samples.

Results

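The Myc network and the Myb family are transcription factors that drive or restrain the renewal of crypt cells in the gut. The 10 genes of them described here are Myc, Mycn, Max, Mxd1, Mxd4, Mxi1, Mnt, Myb, Mybl1 and Mybl2, found by the gene name that the array gives to each probe. They were covered by 18 of the 56605 probes and made up 10 of the 36711 genes tested, and no probe of theirs was lost to the filter on dim probes. With 1 array per pup, RNA from the colon at weaning (3 weeks of age) was compared between 8 pups born by C-section (CSD pups, labelled HYS) and 8 born vaginally (VD pups). All pups were conventional RjOrl:SWISS mice, an outbred stock, and the labels name no drug and no introduced allele. CSD pups were taken by hysterectomy near term and fostered by dams that had just given birth vaginally, and VD litters were exchanged between their dams, so that both groups were raised by foster dams. The 4 females and 4 males of the CSD group came from the litters of mothers 3 and 4, with 4 pups each. The 2 females and 6 males of the VD group came from the litters of mother 5 (5 pups) and mother 6 (3 males). Since no mother had pups in both groups, delivery mode and litter of origin cannot be told apart beyond the spread between 2 litters per group.

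Myc works as a pair with Max on DNA and raises the transcription of genes for ribosomes, nucleotides and entry into the cell cycle. The Mxd proteins, Mxi1 and Mnt also pair with Max, occupy the same DNA sites and recruit repressors, so that the balance of the pairs sets the output of the shared targets. In the colon, Myc is a classical target of Wnt signalling at the crypt base. Myb, the founding member of its family, maintains progenitor cells of the colonic crypt and of the blood, while Mybl2 acts with the MuvB complex on genes of mitosis and Mybl1 is best known for its role in the germ line.

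Values are given on the log2 scale of normalized intensity, averaged over the probes of a gene, and levels of different genes were not compared since each probe has its own brightness. Between 58.7% and 64.9% of the non-control spots of an array lay well above background, and every probe of the 10 genes did so on all 16 arrays except 1 of the 2 probes of Mybl2. No probe shared a run of more than 15 bases with a probe of another gene. A gene was called when its adjusted p-value in limma, corrected by the Benjamini-Hochberg procedure over all genes, was under 0.05. The model had terms for delivery mode and sex, with pups of one mother allowed to vary together. The correlation within litters, estimated over all genes, was 0.015, so the fit treated pups as nearly independent.

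Among the 10 genes, Myc and Myb were called, both higher in CSD pups, and the other 8 were not. Over all genes, 1.25% were called (0.706% higher and 0.548% lower in CSD pups). Both genes are also named in the study of these pups, so their calls are no independent evidence. Of the 10 genes, 5 had a higher and 5 a lower mean in CSD pups after adjustment for sex, with a median log2 fold change of 0.002, against 0.003 over all genes. An unadjusted p-value under 0.05 was seen for 3 genes (Myc, Myb and Mnt), a share of 30.0%, against 14.5% of all genes.

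**Figure D1:**
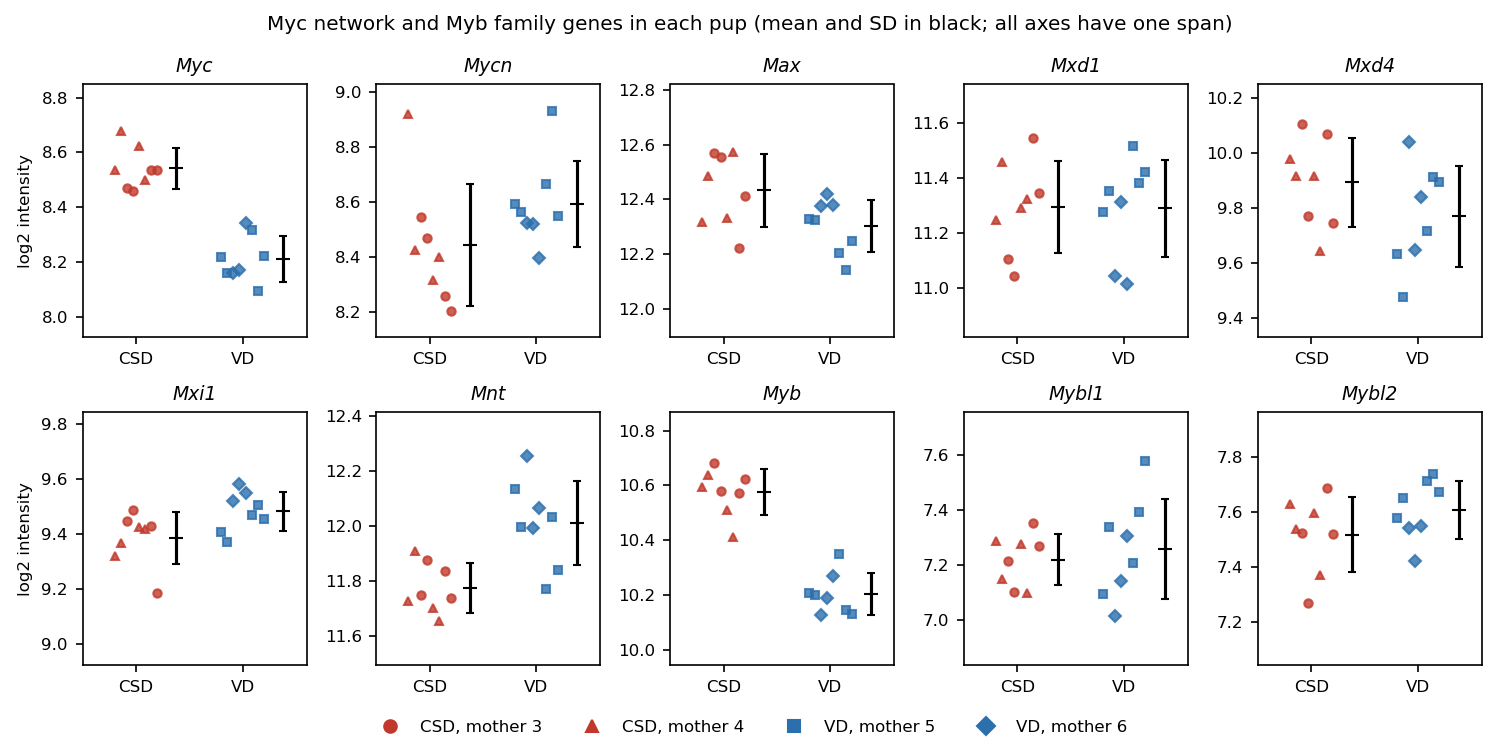
Log2 intensity of the 10 genes in each pup (points, shaped by the mother of the litter), with the mean and SD of each group of 8 pups in black. The vertical axes have the same span but start at different levels. All CSD pups lie above all VD pups for Myc and Myb, while the groups overlap for the other 8 genes.

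Myc, the activator of the network (NM_010849, chromosome 15), ranged from 8.46 to 8.68 with a median of 8.54 in CSD pups. In VD pups it ranged from 8.10 to 8.34 with a median of 8.20. The lowest CSD pup (pup 5) was thus 0.12 above the highest VD pup (pup 8), and the groups did not overlap. Over all genes, 0.496% had groups without overlap, 0.291% with every CSD pup above every VD pup and 0.204% with every CSD pup below. The mean was 8.54 ± 0.075 in CSD pups and 8.21 ± 0.083 in VD pups (SD, n = 8 each). The difference on the log2 scale was 0.33 (SE 0.044), or 1.26-fold, with an adjusted p of 0.00254 in limma. Myc stood at rank 19 of all genes by p-value. An exact permutation test on the means (two-sided) gave p = 0.000155, the smallest that the 12870 assignments of 8 pups out of 16 allow. Groups without overlap always give this value. The test took pups as independent, although delivery mode varied only between litters. In bulk RNA, a larger number of cells with Myc and more Myc RNA per cell cannot be told apart.

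Myc was read by a pair of probes that lie in the last part of its coding sequence, and their bases are shown because the call of Myc rests on them. The first probe (A_52_P108346) lies at chr15:61821417-61821476 on the plus strand of mm9 and is printed up to the stop codon, in capitals. The second (A_52_P278549) lies upstream of it at chr15:61820925-61820984 of mm9.
Myc A_52_P108346: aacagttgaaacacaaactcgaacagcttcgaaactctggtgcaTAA
Myc A_52_P278549: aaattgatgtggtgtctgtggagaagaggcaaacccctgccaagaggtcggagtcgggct

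At the stop codon, the probe read 9.50 to 9.78 (median 9.56) in CSD pups and 9.03 to 9.31 (median 9.18) in VD pups, with no overlap between the groups. Its log2 fold change was 0.41 (SE 0.049, adjusted p of 0.00164 in limma over the 56366 probes tested). Over all probes, 1.74% were called (1.10% higher and 0.642% lower in CSD pups), 0.357% had every CSD pup above every VD pup and 0.188% had every CSD pup below. The upstream probe read 7.41 to 7.60 (median 7.49) in CSD pups and 7.05 to 7.44 (median 7.21) in VD pups, so that the groups overlapped by 0.033. Its log2 fold change was 0.26 (SE 0.055, adjusted p = 0.0298 in limma), and on the scanner-corrected intensity it was 0.40 (SE 0.095, adjusted p = 0.0677 in limma), against 0.46 (SE 0.059, adjusted p = 0.00687 in limma) at the stop codon. Both probes were thus higher in CSD pups, and the upstream probe lost its call under that correction.

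Mycn, the relative of Myc that is prominent in embryonic tissues, was read by 1 probe. It ranged from 8.20 to 8.92 (median 8.41) in CSD pups and from 8.40 to 8.93 (median 8.56) in VD pups. The log2 fold change was -0.19 (SE 0.090, adjusted p = 0.353 in limma). In 3 of 8 CSD pups Mycn was below every VD pup, the other 5 lay within the VD range, and CSD pup 1 and VD pup 10 were the highest of their groups.

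Max, the partner that Myc, Mnt and the Mxd proteins all require, ranged from 12.22 to 12.57 (median 12.45) in CSD pups and from 12.14 to 12.42 (median 12.33) in VD pups. In 4 of 8 CSD pups it exceeded every VD pup, and its log2 fold change was 0.11 (SE 0.059, adjusted p = 0.414 in limma). Its 2 probes differed in size, with a log2 fold change of 0.20 (SE 0.081, adjusted p = 0.240 in limma) at one and 0.021 (SE 0.065) at the other. No difference in Max was therefore called by the gene or by either probe.

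Mnt, the most widely expressed repressor of the network, gave the largest difference among the 5 members lower in CSD pups. Its single probe (NM_010813, chr11:74658915-74658974 of mm9) read 11.65 to 11.91 (median 11.74) in CSD pups and 11.77 to 12.25 (median 12.01) in VD pups. In 5 of 8 CSD pups Mnt was below every VD pup, and in 6 of 8 VD pups it was above every CSD pup. VD pups 9 and 11, both of the litter of mother 5, lay among the CSD pups. The log2 fold change was -0.26 (SE 0.063), that is 1.20-fold higher in VD pups, and the adjusted p of 0.0587 in limma missed the threshold. The exact permutation test, which took no account of litter, gave p = 0.00295. Without VD pup 9 Mnt was called, at a log2 fold change of -0.28 (adjusted p = 0.0260 in limma), while in each of the other 15 fits that left out 1 pup it was not, with an adjusted p of up to 0.164 (without VD pup 4) in limma.

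The 250 bases upstream of the start of Mnt are shown because they hold the CACGTG that Myc and Max bind as a pair (RefSeq, GRCm38.p6, plus strand, chr11:74830674-74830923). Capitals mark CACGTG and, further upstream, the reverse strand of AACGG, a core recognized by Myb proteins.
Mnt: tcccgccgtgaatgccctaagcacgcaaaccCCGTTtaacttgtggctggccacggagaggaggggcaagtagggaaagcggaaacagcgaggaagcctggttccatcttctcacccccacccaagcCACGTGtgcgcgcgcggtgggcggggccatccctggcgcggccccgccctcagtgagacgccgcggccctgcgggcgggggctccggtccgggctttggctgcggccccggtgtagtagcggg

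CACGTG reads the same on both strands. It was found in the promoters of Max, Mnt and Mxd4 among the 8 members with an entry in the RefSeq table, and in 7.2% of the 32851 promoter windows of 300 bases in that table. AACGG, searched on both strands, was in 17.4% of windows. These matches describe the sequence alone, and binding was not measured.

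The Mxd repressors, which rise as cells leave the cycle and differentiate, were not called. Mxd1 ranged from 11.04 to 11.55 (median 11.31) in CSD pups and from 11.01 to 11.52 (median 11.33) in VD pups. Mxd1 differed by a log2 fold change of 0.027 (SE 0.086, adjusted p = 0.922 in limma). Its 2 probes differed in sign, at -0.032 (SE 0.092) and 0.086 (SE 0.10), and neither was called. Mxd4 ranged from 9.65 to 10.10 (median 9.92) in CSD pups and from 9.48 to 10.04 (median 9.78) in VD pups. Mxd4 differed by 0.14 on the log2 scale (SE 0.088, adjusted p = 0.506 in limma). Both groups covered nearly the same range for each gene.

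The 2 probes of Mxd4 disagreed in sign as well. The probe shown here lies in the coding sequence on the minus strand (chr5:34520307-34520366 of mm9).
Mxd4 A_51_P148865: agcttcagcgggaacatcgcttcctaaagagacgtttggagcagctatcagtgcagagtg

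It gave a log2 fold change of 0.39 (SE 0.19, adjusted p = 0.357 in limma), with an SD of 0.43 in CSD pups and 0.39 in VD pups. The other Mxd4 probe gave -0.11 (SE 0.10, adjusted p = 0.667 in limma). The mean of the gene is therefore an average over probes that moved apart, and neither probe was called.

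Mxi1, a further repressor that pairs with Max, ranged from 9.18 to 9.49 (median 9.42) in CSD pups and from 9.37 to 9.58 (median 9.49) in VD pups. Mxi1 had a log2 fold change of -0.091 (SE 0.046, adjusted p = 0.389 in limma). In 4 of 8 VD pups Mxi1 exceeded every CSD pup, and CSD pup 9 was the lowest of all. Both probes of Mxi1 were lower in CSD pups, by -0.042 (SE 0.054) and -0.14 (SE 0.086) on the log2 scale, and neither was called.

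**Figure D2:**
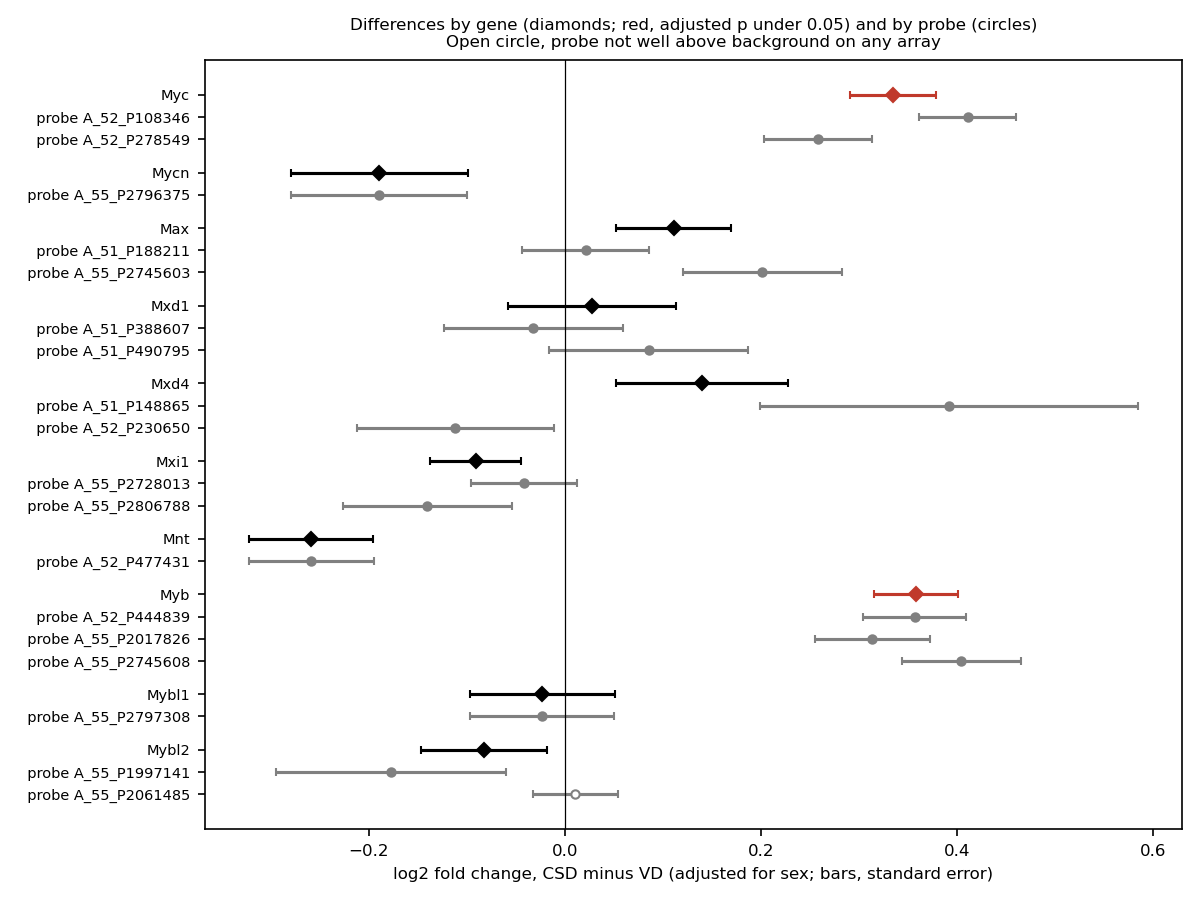
Log2 fold change between CSD and VD pups, adjusted for sex, for each of the 10 genes (diamonds) and each of their 18 probes (circles), with standard errors as bars. Genes called are red, and the open circle is the Mybl2 probe not well above background on any array. All 5 probes of Myc and Myb lie to the right of 0, while the 2 probes each of Mxd1, Mxd4 and Mybl2 lie on opposite sides.

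Myb, the progenitor factor of its family (NM_010848 and NM_001198914, chromosome 10), had the smallest p-value of the 10 genes and rank 9 over all genes. It ranged from 10.41 to 10.68 (median 10.59) in CSD pups and from 10.13 to 10.35 (median 10.20) in VD pups. The groups did not overlap, with the lowest CSD pup (pup 7) 0.062 above the highest VD pup (pup 9). The mean was 10.58 ± 0.084 in CSD pups and 10.20 ± 0.076 in VD pups (SD, n = 8 each). The log2 fold change was 0.36 (SE 0.043), or 1.28-fold, with an adjusted p of 0.00130 in limma. The exact permutation test gave p = 0.000155, again the smallest possible, as it must be for groups without overlap, and again without account of litter.

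Myb was read by 3 probes spread over the transcript, and the 2 in the coding sequence are shown, both on the minus strand of mm9. The first lies at chr10:20872381-20872440, near the 5′ end of the transcript, and the second at chr10:20861577-20861636.
Myb A_52_P444839: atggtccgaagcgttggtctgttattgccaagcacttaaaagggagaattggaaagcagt
Myb A_55_P2745608: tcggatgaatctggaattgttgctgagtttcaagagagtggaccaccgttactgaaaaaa

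The 5′ probe read 8.61 to 8.97 (median 8.82) in CSD pups and 8.30 to 8.58 (median 8.40) in VD pups. This probe differed by 0.36 on the log2 scale (SE 0.053, adjusted p = 0.00413 in limma). The second coding probe read 9.95 to 10.37 (median 10.16) in CSD pups and 9.48 to 9.87 (median 9.75) in VD pups. It differed by 0.40 on the log2 scale (SE 0.061, adjusted p = 0.00479 in limma). The third probe (A_55_P2017826), nearest to the 3′ end, read 12.66 to 12.90 (median 12.77) in CSD pups and 12.28 to 12.65 (median 12.56) in VD pups. At this probe the log2 fold change was 0.31 (SE 0.059, adjusted p = 0.0160 in limma). The groups did not overlap at any of the 3 probes, each of which was called.

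The bases upstream of Myb and of its relative Mybl2 are shown together, since both hold TTGGCGGG close to the start (capitals), a sequence of the kind bound by E2F factors. The Myb stretch lies on the minus strand at chr10:21160985-21161234 and the Mybl2 stretch on the plus strand at chr2:163054385-163054634 (RefSeq, GRCm38.p6).
Myb: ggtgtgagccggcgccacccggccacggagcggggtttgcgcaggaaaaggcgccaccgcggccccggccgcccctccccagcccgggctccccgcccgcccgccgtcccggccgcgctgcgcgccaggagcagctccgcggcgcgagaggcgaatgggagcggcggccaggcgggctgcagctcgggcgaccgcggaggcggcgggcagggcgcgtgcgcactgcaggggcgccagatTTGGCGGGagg
Mybl2: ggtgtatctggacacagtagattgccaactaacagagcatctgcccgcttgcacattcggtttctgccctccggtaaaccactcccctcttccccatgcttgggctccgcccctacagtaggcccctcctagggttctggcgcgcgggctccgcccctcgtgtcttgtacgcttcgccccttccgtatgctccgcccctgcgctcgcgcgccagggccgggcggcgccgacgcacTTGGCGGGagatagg

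TTGGCGGG was chosen after these stretches had been read. On both strands together it was present in 1.0% of the 32851 windows, and among the 8 members with an entry only Myb and Mybl2 had it. CACGTG and AACGG were not found in the window of 300 bases of either gene. AACTG, a second core of Myb proteins, which 44.8% of windows held, was absent from the window of 300 bases of Myb and present once in that of Mybl2, 31 bases past the start. The E2F motif TTTNNCGC, held by 5.2% of windows, was in neither window.

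Mybl2, the mitotic member of the family, was not called. It ranged from 7.27 to 7.69 (median 7.53) in CSD pups and from 7.42 to 7.74 (median 7.62) in VD pups. For the gene, the log2 fold change was -0.083 (SE 0.064, adjusted p = 0.608 in limma). Its probe above background (A_55_P1997141) gave -0.18 (SE 0.12, adjusted p = 0.529 in limma). The other Mybl2 probe gave 0.011 (SE 0.044) and was well above background on 0 of 16 arrays. Mybl1 ranged from 7.10 to 7.35 (median 7.24) in CSD pups and from 7.01 to 7.58 (median 7.26) in VD pups. Mybl1 had a log2 fold change of -0.023 (SE 0.074, adjusted p = 0.924 in limma). The CSD pups of Mybl1 lay entirely within the range of the VD pups.

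The study adjusted for sex and litter, and the 10 genes were examined for both. Between females and males, 0.0599% of all genes were called and none of the 10 was. An unadjusted p under 0.05 in limma was seen in 6.45% of all genes and in none of the 10. The largest sex difference among the 10 was that of Mycn, 0.16 higher in females on the log2 scale (SE 0.091, adjusted p = 0.831 in limma). The delivery by sex interaction was called for 0.00272% of all genes and for none of the 10. Mxd4 had the smallest unadjusted p among them (0.0255, adjusted p = 0.981 in limma), and 4.72% of all genes had one under 0.05. Its log2 means were 9.94 in CSD females, 9.85 in CSD males, 9.55 in VD females and 9.84 in VD males. Only 2 VD females were measured.

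For Myc, the litter means were 8.50 and 8.58 in the CSD litters (mothers 3 and 4) and 8.20 and 8.23 in the VD litters (mothers 5 and 6). For Myb they were 10.61 and 10.54 in the CSD litters and 10.21 and 10.20 in the VD litters. For both genes the litters of one delivery mode lay closer to each other than to any litter of the other mode. For Mnt, the CSD litters were at 11.80 and 11.75 and the VD litters at 11.96 and 12.10. Over all genes, 42.0% had both CSD litter means on one side of both VD litter means, so this order alone is common.

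Between the 2 CSD litters, 0.0872% of all genes were called, and none of the 10 had an unadjusted p under 0.05 in limma, against 7.68% of all genes. Between the 2 VD litters, 0.874% of all genes were called and again none of the 10, though 5 had an unadjusted p under 0.05 in limma, against 11.5% of all genes. Mxd1 differed most, 0.33 higher in the litter of mother 5 on the log2 scale (SE 0.097, adjusted p = 0.159 in limma). Mybl1 and Mybl2 were 0.21 and 0.19 higher in the litter of mother 5, while Max and Mnt were lower there by -0.18 and -0.20. Myc and Myb were not among the 5 genes, with differences of -0.015 and -0.012 between the VD litters.

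The arrays lay on 2 slides with 4 CSD and 4 VD pups each. Within slide 1 the difference of the means was 0.32 for Myc and 0.34 for Myb, and within slide 2 it was 0.34 and 0.40. Mnt was at -0.21 and -0.27, and Mxd4 at 0.26 and -0.014. In limma on 1 slide alone, neither Myc nor Myb passed the threshold (adjusted p from 0.118 to 0.426).

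**Figure D3:**
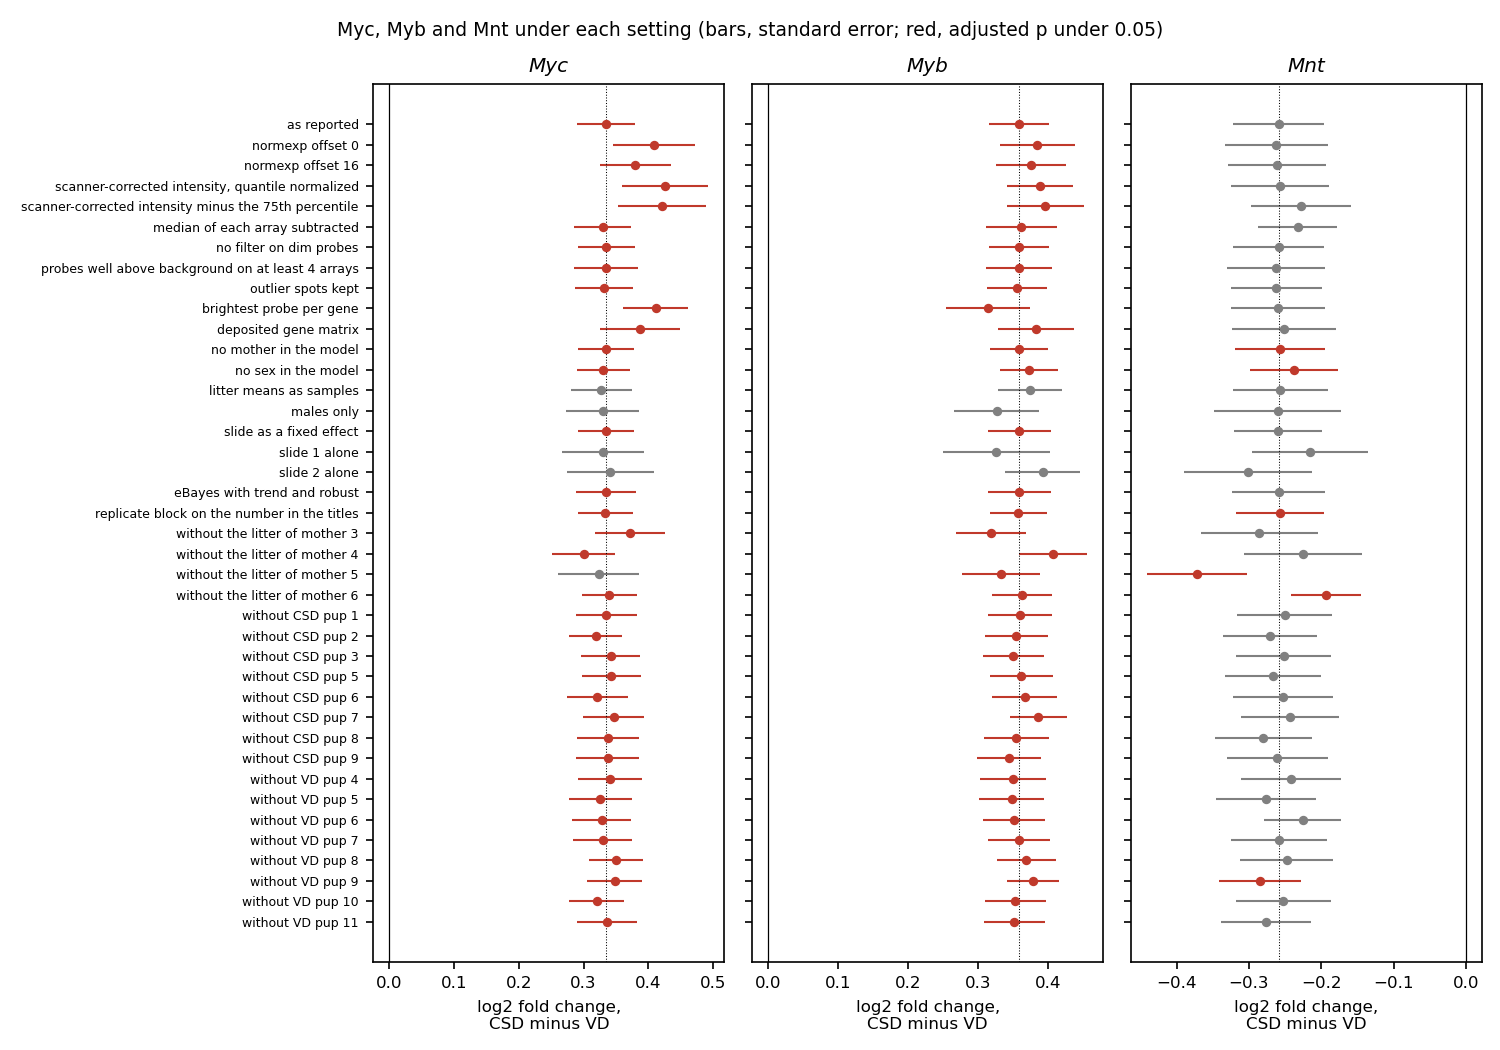
Log2 fold change of Myc, Myb and Mnt between CSD and VD pups under each way of processing the arrays and each subset of pups, with standard errors as bars and red points for an adjusted p under 0.05. The dotted line is the value as reported. Myc stayed between 0.30 and 0.43, Myb between 0.31 and 0.41 and Mnt between -0.37 and -0.19, and each gene passed the threshold in some alternatives and missed it in others.

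Over 39 alternatives, Myc remained called in 34 and Myb in 35. The alternatives that ended the call of Myc were litter means in place of pups (adjusted p = 0.254 in limma), males only (0.114), each slide alone (0.361 and 0.192) and leaving out the litter of mother 5 (0.0587). Those that ended the call of Myb were litter means (0.236), males only (0.151) and each slide alone (0.426 and 0.118). Mnt passed the threshold in 6 alternatives.

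The genes that work with the members or below them were compared by lists of known partners and targets. Their calls come from the fit as reported and were not examined under the alternatives. Of 6 further genes of the Max and Mlx network, 4 were higher in CSD pups and none was called. Mga, a large Max partner, had a log2 fold change of 0.11 (SE 0.043, adjusted p = 0.240 in limma), and Mlxipl, the sugar-sensing ChREBP, one of 0.11 (SE 0.052, adjusted p = 0.318 in limma). Of 23 cofactors and turnover factors of Myc, 13 were higher and none was called. Bin1, which binds and restrains Myc, had a log2 fold change of -0.20 (SE 0.057, adjusted p = 0.0968 in limma), and Mycbp2, a ubiquitin ligase first found as a Myc-binding protein, one of -0.082 (SE 0.040, adjusted p = 0.368 in limma).

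Among 28 Myc targets in ribosome biogenesis, 22 had a higher mean in CSD pups (78.6%, against 51.7% of all genes), with a median log2 fold change of 0.072. The highest of them was Wdr43, a processing factor of ribosomal RNA named here after its value was seen, at 0.44 (SE 0.12, adjusted p = 0.0961 in limma), and it was not called. An unadjusted p under 0.05 in limma was reached by 7 of the 28, against 14.5% of all genes. Pa2g4, a growth-regulated protein of the ribosome, was the gene called (11.15 ± 0.10 in CSD and 10.81 ± 0.17 in VD pups, SD, n = 8 each). Its log2 fold change was 0.29 (SE 0.057, adjusted p = 0.0265 in limma). In 6 of 8 CSD pups Pa2g4 exceeded every VD pup.

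Among 33 Myc targets in metabolism, translation and cell cycle entry, 19 were higher (57.6%, against 51.7% of all genes), with a median of 0.019. An unadjusted p under 0.05 in limma was reached by 10 (30.3%), beside 14.5% of all genes. These 10 went both ways, most of them higher and the rest lower in CSD pups. Ppat, which catalyses the first committed step of purine synthesis, was the gene called. It was at 9.13 ± 0.12 in CSD and 8.85 ± 0.11 in VD pups (SD, n = 8 each). Its log2 fold change was 0.27 (SE 0.061, adjusted p = 0.0448 in limma). Of 9 genes that Myc is known to repress, 4 were higher and 5 lower and none was called. The secreted chaperone Clu had a log2 fold change of -0.43 (SE 0.12, adjusted p = 0.0997 in limma) and the ferritin heavy chain Fth1 one of -0.054 (SE 0.044, adjusted p = 0.628 in limma).

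Among 13 partners of Myb, 10 were higher in CSD pups (76.9%, against 51.7% of all genes), with a median of 0.068. For 4 (30.8%, against 14.5% of all genes) the limma p before adjustment was under 0.05, and these 4 did not all go the same way. Crebbp, the acetyltransferase that Myb needs as a coactivator, was the gene called, at 10.13 ± 0.12 in CSD and 9.88 ± 0.077 in VD pups (SD, n = 8 each). Its log2 fold change was 0.22 (SE 0.046, adjusted p = 0.0344 in limma), and in 7 of 8 CSD pups it exceeded every VD pup. Of 15 known Myb targets, 11 were lower, with a median of -0.020, and none was called. Gfi1, a transcriptional repressor that acts within secretory and blood lineages, had a log2 fold change of 0.21 (SE 0.053, adjusted p = 0.0674 in limma). The adenosine receptor gene Adora2b had one of -0.14 (SE 0.046, adjusted p = 0.143 in limma), with a probe that was not well above background on all arrays of either group.

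Of 12 genes of the MuvB complex and its partners, 7 were higher and none was called. The subunit genes Lin52 and Lin54 had log2 fold changes of -0.13 (SE 0.057, adjusted p = 0.309 in limma) and 0.088 (SE 0.042, adjusted p = 0.358 in limma). Of 23 mitotic targets of Mybl2 and MuvB, 20 were lower in CSD pups, with a median of -0.059, and none was called or reached an unadjusted p under 0.05. The mitotic kinase Plk1 had a log2 fold change of -0.33 (SE 0.22, adjusted p = 0.550 in limma), and the spindle protein Prc1 one of -0.12 (SE 0.10, adjusted p = 0.659 in limma). Of 17 genes of the Wnt pathway in the crypt, 10 were higher, with a median of 0.007, and none was called. The Wnt effector Lef1 had a log2 fold change of -0.24 (SE 0.072, adjusted p = 0.117 in limma) and the crypt receptor Ephb3 one of -0.091 (SE 0.049, adjusted p = 0.417 in limma).

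**Figure D4:**
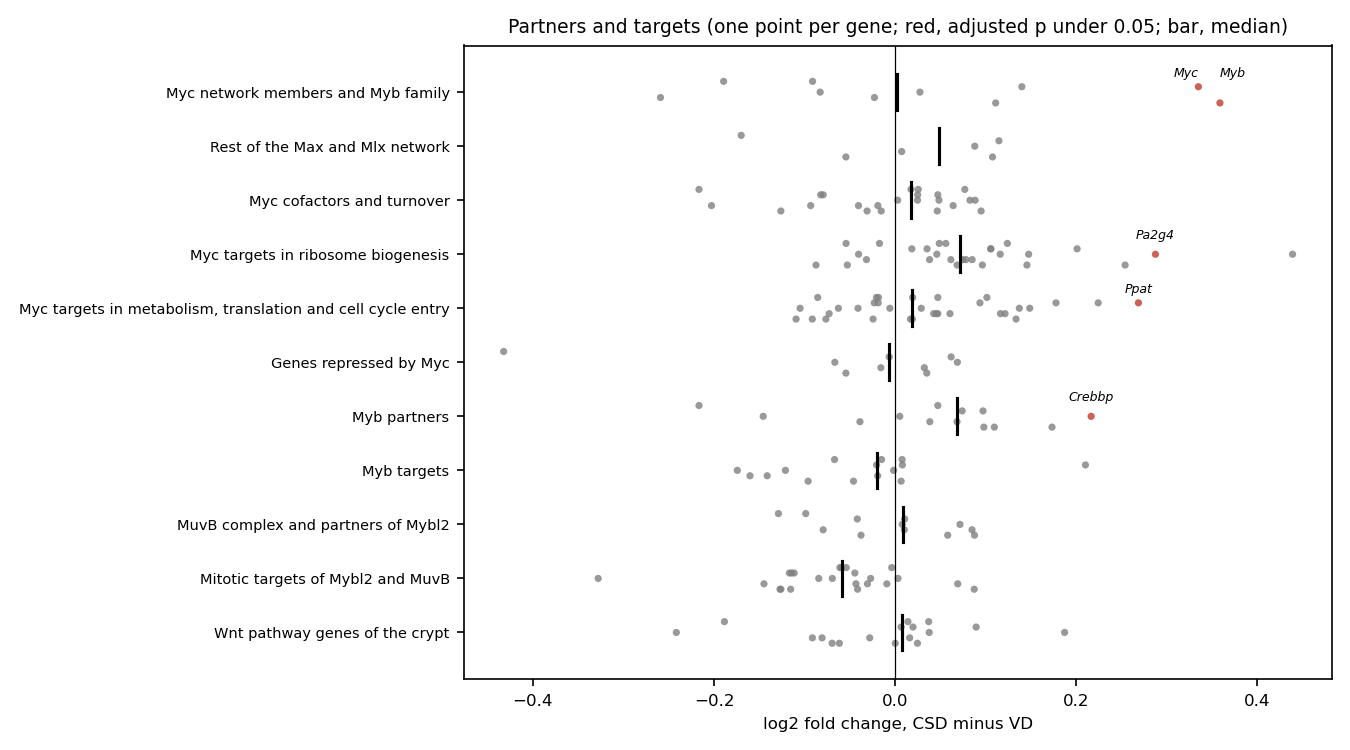
Log2 fold change between CSD and VD pups of the members and of their partners and targets, 1 point per gene, with the median of each list as a black bar and called genes in red. Besides Myc and Myb, 3 genes were called (Pa2g4, Ppat and Crebbp), and their calls were not examined under other ways of processing. The median is highest for the targets in ribosome biogenesis, at 0.072, and lowest for the mitotic targets, at -0.059.

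Myc and Myb are active in crypt epithelium and in lymphocytes, so the markers of these cells are given beside them. The labels name the source as intestine and the extracted tissue as colon. Of the markers, 6 of 6 colon epithelial genes were well above background on all arrays, as were 3 of 6 genes of the small intestine, led by Fabp6, while the other 3 were so on none. All 6 colon epithelial markers had a higher mean in CSD pups (median 0.24, none called). The chloride exchanger gene Slc26a3 had a log2 fold change of 0.45 (adjusted p = 0.113 in limma) and the intestinal factor Cdx2 one of 0.33 (adjusted p = 0.437 in limma). The summed linear intensity of the colon markers, led by the water channel Aqp8, was 149008 to 223790 (median 189761) in CSD and 146240 to 202863 (median 168579) in VD pups. Of the 6 small intestine markers, 5 were lower in CSD pups (median -0.036) and none was called. Among them, Apoc3 and Apoa4 had log2 fold changes of -0.13 and -0.049. The probe of Apoa4 was not well above background on all arrays of either group, and of the 3 probes of Apoc3 only 1 was. Of 7 goblet cell markers, 6 were higher in CSD pups (median 0.18) and none was called. Before adjustment, 3 (42.9%, against 14.5% of all genes) had a limma p under 0.05. Spdef, a transcription factor of secretory cells, had a log2 fold change of 0.29 (SE 0.069, adjusted p = 0.0526 in limma) and was above every VD pup in 7 of 8 CSD pups. Fcgbp, a mucus protein, had one of 0.59 (SE 0.15, adjusted p = 0.0722 in limma). The goblet cell sum, led by Zg16, had medians of 866792 in CSD and 811640 in VD pups. Stem and progenitor cells of the crypt had 11 markers, of which 7 were higher and none was called (median 0.020 on the log2 scale), and the sum led by Lrig1 had medians of 9438 in CSD and 9889 in VD pups. Hopx, known as a marker of reserve stem cells, was at 11.03 ± 0.14 in CSD and 11.31 ± 0.15 in VD pups (SD, n = 8 each). The difference was -0.29 on the log2 scale (SE 0.076, adjusted p = 0.0768 in limma), and Hopx was below every VD pup in 5 of 8 CSD pups. Prom1 differed by 0.13 on the same scale (SE 0.052, adjusted p = 0.225 in limma) and was above every VD pup in 5 of 8 CSD pups.

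All 6 B cell markers had a lower mean in CSD pups (median -0.41, none called), and so had all 6 T cell markers (median -0.29, none called). The B cell sum, led by Cd79b, was 1698 to 9246 (median 3000) in CSD and 3200 to 7854 (median 5203) in VD pups. Cd79a, a part of the B cell receptor, had a log2 fold change of -0.48 (adjusted p = 0.0993 in limma) and was below every VD pup in 6 of 8 CSD pups. The T cell sum, led by Cd3d, was 1330 to 2287 (median 1673) in CSD and 1700 to 4429 (median 2132) in VD pups. Cd4 had a log2 fold change of -0.10 (adjusted p = 0.282 in limma) and Cd3e one of -0.24 (adjusted p = 0.417 in limma). Of 6 germinal centre markers, 2 were higher and 4 lower in CSD pups (median -0.09). Bcl6, a repressor that epithelium also makes, was called higher in CSD pups at a log2 fold change of 0.41 (SE 0.092, adjusted p = 0.0409 in limma), and the other 5 were not called. Of 6 plasma cell markers, 4 were lower in CSD pups (median -0.29), and none was called, although before adjustment the limma p of 3 of them was under 0.05. Mzb1 had a log2 fold change of -0.87 (SE 0.29, adjusted p = 0.162 in limma) and Tnfrsf17 one of -0.57 (SE 0.21, adjusted p = 0.189 in limma). The plasma cell sum, led by Jchain, was 12213 to 51052 (median 23720) in CSD and 30691 to 78298 (median 41481) in VD pups. All 4 erythroid markers were lower in CSD pups and none was called, and their sum, led by Hba-a1, was 17570 to 75202 (median 29544) in CSD and 31246 to 66236 (median 46527) in VD pups. Hba-a1 and Hbb-b1 had log2 fold changes of -0.41 and -0.42 (adjusted p = 0.360 and 0.417 in limma).

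In the other lists no marker was called. All 4 endothelial markers (median -0.11) and all 4 adipocyte markers (median -0.21) had a lower mean in CSD pups, as had 4 of 5 macrophage markers (median -0.12) and 4 of 5 smooth muscle markers (median -0.10). Of the fibroblast markers 2 of 4 were higher, of those of enteric neurons and glia 5 of 7, and of those of mast cells 4 of 5. The pair with the smallest p of each list had log2 fold changes of -0.18 and -0.15 (Cdh5 and Tek, endothelium), -0.084 and -0.34 (Lep and Cidec, adipocytes), -0.26 and -0.12 (Cd68 and Csf1r, macrophages) and -0.17 and -0.090 (Acta2 and Des, smooth muscle). The log2 fold changes for fibroblasts were -0.18 and -0.077 (Dcn and Pdgfra), those for enteric neurons and glia -0.16 and -0.22 (Sox10 and Uchl1), and those for mast cells 0.42 and 0.092 (Cpa3 and Mcpt2). The groups overlapped in the summed level of every marker list, and the part of these cells in the differences of Myc and Myb was not tested.

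The genes most like Myc and Myb over the 16 pups were found by the Pearson correlation of their log2 values, given as a description since these pups share the difference between groups. Most like Myc were Myb (r = 0.909), Ippk, an inositol phosphate kinase (r = 0.900), and Ap5m1, a subunit of an adaptor complex for vesicles (r = 0.894). Most like Myb were Ap5m1 (r = 0.957), Rcbtb1 (r = 0.929) and Fam103a1, known for its part in mRNA capping (r = 0.914), with Myc at rank 6. The relation of Myc with Myb was also computed within each group, and the difference between the groups was not tested. In the 8 CSD pups, r was 0.038 and Spearman's rho -0.024 (permutation p = 0.927 and 0.977, exact). In the 8 VD pups, r was 0.787 and rho 0.571 (exact permutation p = 0.0220 and 0.151, or 0.0439 and 0.302 after adjustment over both groups). Without the 2 VD pups farthest from the median of Myc, r was 0.233, so the value over all 8 rested on those 2 pups, whose removal also narrows the range of Myc.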

How the data were processed

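Colon RNA of 16 pups was measured on 1-colour Agilent arrays (grid 074809, Feature Extraction 12.0.3.2). For each spot, the authors deposited its mean intensity and local background, the intensity after correction in the scanner software, and other marks (0 or 1, for spots well above background, saturated or outlying). They also deposited a gene matrix of log2 values that the authors had corrected, quantile normalized, filtered and averaged by gene with limma 3.38. Here the mean intensity was background corrected (normexp, offset 50), control spots and outlier spots were left out, and log2 values were quantile normalized. A probe was kept if it exceeded the 5% quantile of an array on 4 or more arrays (56366 of 56605 probes), and probes were averaged by the gene name of the array's design. Probe positions are those of the array files (mm9).

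CSD and VD pups were compared with lmFit and eBayes in limma 3.58.1 (R 4.3.3), with sex fixed and the mother random (duplicateCorrelation, consensus correlation 0.015). Exact permutation tests were two-sided and took no account of litter or sex. The fit was checked on simulated data. The few arrays and litters limit the precision.

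The members and lists were chosen with earlier results of these data known. Named genes were the 10 members, the called genes of each list or otherwise the 2 with the smallest p, and the 3 genes most like Myc and most like Myb. A gene that this rule names is not reported here. Alternatives were other background corrections, normalizations, filters and models, the deposited matrix, subsets of pups and an adjusted p under 0.1. Single genes were followed under them only for the 10 members, so calls of list genes, Bcl6 among them, were not examined there.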

Additional observations from a re-analysis of the deposited data

Results flagged for a closer look

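In 2 of 36 sets of 8 values of a probe, 1 pup lay far from the other 7 of its group by Dixon's criterion, which chance meets in about 1 of 20 sets, and in 0 of 20 sets of gene values. At the Max probe A_55_P2745603, CSD pup 8 was at 10.15 on the log2 scale, and the nearest CSD pup was at 10.49. At the Mxi1 probe A_55_P2806788, CSD pup 9 was at 11.71, and the nearest CSD pup was at 12.01. Without CSD pup 8 Max was at 0.1464, and without CSD pup 9 Mxi1 was at -0.0483, and neither was called.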

How the results depend on the processing

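In limma, 460 genes were called as reported. The count was 102 and 243 with a normexp offset of 0 and 16, 177 and 164 with the scanner-corrected intensity (quantile normalized, or minus the 75th percentile), 170 in the deposited matrix, 992 with no sex term and 1126 at an adjusted p under 0.1. It was 11 on slide 1 and 0 on slide 2, with males only and with litter means, where 3789, 3295 and 4034 genes had an unadjusted p under 0.05 in limma. Without the litter of mother 3, 4, 5 or 6 it was 212, 138, 189 and 2265, and without 1 pup 145 to 617. CSD pups were higher in 56.3% of calls, but in 42.2% at offset 0 and 32.8% without the litter of mother 5.

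Of the 10 genes, 2 were called in most alternatives and 3, with Mnt added, in 6. There were 0 called with litter means (Myc at 0.3275, Myb at 0.3738), males only (0.3294 and 0.3264), slide 1 (0.3295 and 0.3259) and slide 2 (0.3414 and 0.3922), each with fewer samples. Without the litter of mother 5 Myc was at 0.3230 and not called. Leaving out 1 pup, Myc ranged from 0.3189 to 0.3506 and Myb from 0.3437 to 0.3858, and both stayed called. Mnt was called with no mother (-0.2573), no sex (-0.2378), without the litters of mother 5 (-0.3721) and 6 (-0.1938), and without VD pup 9 (-0.2847).

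Among genes not called, signs changed for Mxd4 by its brightest probe (-0.1133), Mxd1 on slide 1 (-0.0370) and without the litter of mother 6 (-0.0802), and, without the litter of mother 5, Max (-0.0069), Mybl1 (0.0962) and Mybl2 (0.0401). Leaving out 1 pup, Mxd1 ranged from -0.0153 to 0.0562 and Mybl1 from -0.0563 to 0.0138. With no change of sign or call, Mycn ranged from -0.2323 to -0.1432, Max from 0.0754 to 0.1464, Mxd4 from 0.0796 (without VD pup 5) to 0.1968, Mxi1 from -0.1131 to -0.0483 (without CSD pup 9) and Mybl2 from -0.1145 to -0.0500 (without CSD pup 7). The dim Mybl2 probe A_55_P2061485 was at -0.0006 with the scanner-corrected intensity. The cause was not tested.

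Pup numbers 5 to 9 occur in both groups. Deviations of same-numbered pups had correlations of -0.049 to 0.215. Among the shared numbers, CSD pups 5 (0.115) and 6 (0.215) correlated best with the VD pup of their own number, and the other CSD pups did not. Whether the number marks a shared factor was not tested. With the number as a replicate block, 697 genes were called, Myc at 0.3335, Myb at 0.3569 and Mnt at -0.2574 among them.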
